A study of Rattus norvegicus with 6 samples.

Results

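miR-423 is one microRNA (miRNA) hairpin, and its members here are the sequences from both of its arms, rno-miR-423-5p and rno-miR-423-3p. They were taken by name from the table of circulating exosome miRNAs and make up 2 of the 427 sequences with rat miRNA names and 2 of all 867 sequences listed. Exosomes, small membrane vesicles that cells release into blood, were isolated from the serum of male Sprague-Dawley rats of 6 to 8 weeks on a normal diet. NXT-Exo came from rats given Naoxintong Capsule (NXT), a Chinese patent medicine, by gavage at 1000 mg/kg/d, and Ctl-Exo from rats given saline at 5 mL/kg/d. Small RNA was sequenced from 5 NXT-Exo libraries (NXT-Exo 1 to 5) and compared here with 1 Ctl-Exo library (Ctl-Exo 5). The sample titles give 7 days of dosing throughout, whereas another label field gives 7 to 11 days for NXT-Exo 1 to 5 in that order and 11 days for Ctl-Exo 5. Each group had 10 rats and 10 mL of blood was drawn per rat, but 110 mL of serum was centrifuged in all, and nothing in the labels says whether a library stands for 1 rat or a pool. The spread between NXT-Exo libraries may therefore be partly technical.

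A miRNA hairpin is cut first by Drosha and then by Dicer into a short duplex with a 5p and a 3p strand. One strand of the duplex usually stays in an Argonaute protein, where its seed, bases 2 to 8, finds target mRNAs, and the other strand is mostly degraded. For miR-423 both strands are commonly found in serum and plasma. Both are used as reference assays there, and miR-423-5p has been studied in human plasma as a marker of heart failure.

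The listed sequences are shown first, because the arms differ in length and end as well as in level. Capitals mark the seed, and the letters are written as DNA, as the authors listed them.
rno-miR-423-5p: tGAGGGGCagagagcgagactttt
rno-miR-423-3p: aGCTCGGTctgaggcccctcagt
miR-423-x: tGAGGGGCagagagcgagactttat
miR-423-y: aGCTCGGTctgaggcccctcagaa

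The 5p arm had 24 bases, 13 of them G or C and 10 of them G. The 3p arm had 23 bases, 15 of them G or C. The 5p arm was long for a miRNA in this table, where 15 of the 427 sequences with rat names had 24 bases or more. miR-423-x and miR-423-y are further listed sequences, named without the rat prefix, with the seed of the 5p and the 3p arm. miR-423-x shared the first 23 bases of the 5p arm and miR-423-y the first 22 bases of the 3p arm, and the last 2 bases of each had no match in the rat hairpin. No other listed sequence had either seed. In the RefSeq table of rat miRNAs (GRCr8), the seed of the 5p arm is shared by rno-miR-3573-5p, which is printed here for that reason as RNA.
rno-miR-3573-5p: uGAGGGGCagugauagaaagga

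The RefSeq hairpin of Mir423 has 79 bases and lies on the minus strand of GRCr8 at chr10:62412272-62412350. Both listed arms matched it exactly, the 5p arm at chr10:62412317-62412340 and the 3p arm at chr10:62412282-62412304. In the RefSeq gene table this place lies within the span of Nsrp1, which encodes a splicing regulator, on the same strand. Exon and intron limits were not given there. The hairpin is shown with both arms in capitals, to place them across from each other.
Mir423 hairpin: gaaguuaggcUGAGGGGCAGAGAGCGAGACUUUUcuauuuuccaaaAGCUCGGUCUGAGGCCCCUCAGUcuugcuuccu

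In the structure that RNAfold predicts for this hairpin (-43.7 kcal/mol), 12 bases separate the arms, and 17 bases of each arm pair with the other arm. The first base of both arms was paired. The letters GGAG, bound by the RNA-binding protein hnRNPA2B1, and GGCU, bound by SYNCRIP, have been linked with the sorting of miRNAs into exosomes. Neither arm held these letters, which were present in 8.43% (GGAG) and 11.5% (GGCU) of the 427 sequences with rat names. This says only that the letters are not in these strands.

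Both arms were abundant in every library. The reads of rno-miR-423-5p numbered 14689, 15353, 11088, 3788 and 17297 in NXT-Exo 1 to 5 and 7781 in Ctl-Exo 5. Those of rno-miR-423-3p numbered 10379, 11299, 8196, 3693 and 12771 in NXT-Exo 1 to 5 and 6427 in Ctl-Exo 5. Libraries differed in depth, from 1168686 listed reads in NXT-Exo 4 to 3781718 in NXT-Exo 5, with 1890463 in Ctl-Exo 5, so the counts themselves cannot be compared between libraries. As a share of listed reads, the 5p arm took 0.324% to 0.505% and the 3p arm 0.316% to 0.357%. The 5p arm ranked 30th to 44th by reads among the 867 sequences and the 3p arm 37th to 45th, with the lowest rank of both in NXT-Exo 4.

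To compare libraries, each count was expressed per 1000000 listed reads (CPM) after scaling with TMM factors, which correct for a few sequences taking a large part of a library. One read was then worth 0.261 to 0.782 CPM. CPM is a relative measure, so more vesicles carrying miR-423 and more miR-423 per vesicle cannot be told apart. rno-miR-423-5p was at 4897, 4624, 4985, 2961 and 4511 CPM in NXT-Exo 1 to 5 and at 4237 CPM in Ctl-Exo 5. NXT-Exo 4 was the lowest library by a wide margin, and Ctl-Exo 5 lay next to it, below the other 4 NXT-Exo libraries. rno-miR-423-3p was at 3460, 3403, 3685, 2887 and 3331 CPM in NXT-Exo 1 to 5 and at 3499 CPM in Ctl-Exo 5. Here too NXT-Exo 4 was lowest, but Ctl-Exo 5 was second highest, just below NXT-Exo 3. For both arms Ctl-Exo 5 fell within the range of NXT-Exo.

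**Figure D1:**
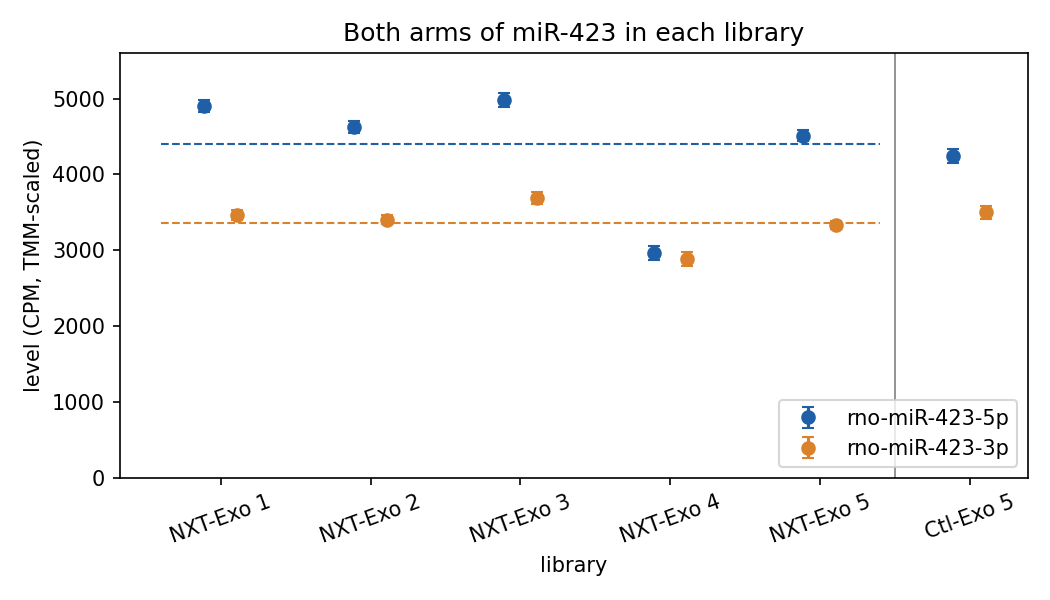
Level of each arm of miR-423 (CPM, TMM-scaled) in the 5 NXT-Exo libraries and Ctl-Exo 5. Points are single libraries, bars are Wilson 95% intervals of counting error, and dashed lines are the NXT-Exo means (4396 CPM for 5p, 3353 CPM for 3p). The arms nearly meet in NXT-Exo 4 (2961 and 2887 CPM) and are well apart in the other libraries.

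The comparison of NXT-Exo with Ctl-Exo asks which circulating miRNAs NXT changed. Neither arm of miR-423 differed between the groups beyond the spread of the NXT-Exo libraries. In NXT-Exo the mean of rno-miR-423-5p was 4396 ± 825 CPM (SD, n = 5). Ctl-Exo 5 had 4237 CPM, and its counting interval (Wilson, 95%) was 4144 to 4332 CPM. For rno-miR-423-3p the treated libraries averaged 3353 ± 292 CPM (SD, n = 5). Ctl-Exo 5 had 3499 CPM (interval 3415 to 3586 CPM). For the 5p arm 4 of the 5 treated libraries had a higher level than Ctl-Exo 5, and for the 3p arm 1 did. The sum of both arms was 7749 ± 1109 CPM (SD, n = 5) against 7736 CPM.

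In edgeR's quasi-likelihood fit over the 467 miRNAs that averaged 10 or more reads per library, the log2 difference of NXT-Exo from Ctl-Exo 5 was 0.05 (SE 0.27) for the 5p arm and -0.06 (SE 0.21) for the 3p arm. The adjusted p (Benjamini-Hochberg) was 0.971 for both. The 95% interval ran from 0.688-fold to 1.57-fold for the 5p arm and from 0.7-fold to 1.31-fold for the 3p arm. Changes within these limits are compatible with the data, and the limits are not a threshold of detection. The fit assumes that the lone Ctl-Exo library varies like the NXT-Exo libraries. At an FDR of 0.05 it called 0 of the 467 miRNAs, or 0.0%, and 24 miRNAs (5.14%) had an unadjusted p under 0.05, against 0 called and 29 with DESeq2. As a description, 30 of the 467 miRNAs (6.42%) were at least 2-fold apart with Ctl-Exo 5 outside the NXT-Exo range, and for 175 (37.5%) Ctl-Exo 5 was outside that range at any fold. Neither arm of miR-423 was among either set.

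The arms were then compared within each library, where the ratio of their reads needs no scaling. The 5p arm had more reads than the 3p arm in 6 of 6 libraries. There were 1.415, 1.359, 1.353, 1.026 and 1.354 reads of 5p for each read of 3p in NXT-Exo 1 to 5 and 1.211 in Ctl-Exo 5. The 4 other NXT-Exo libraries lay within a narrow band, NXT-Exo 4 was far below it and Ctl-Exo 5 in between. The mean log2 ratio over the 6 libraries was 0.36 (SD 0.17), and the ratio is one of reads, not of molecules.

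**Figure D2:**
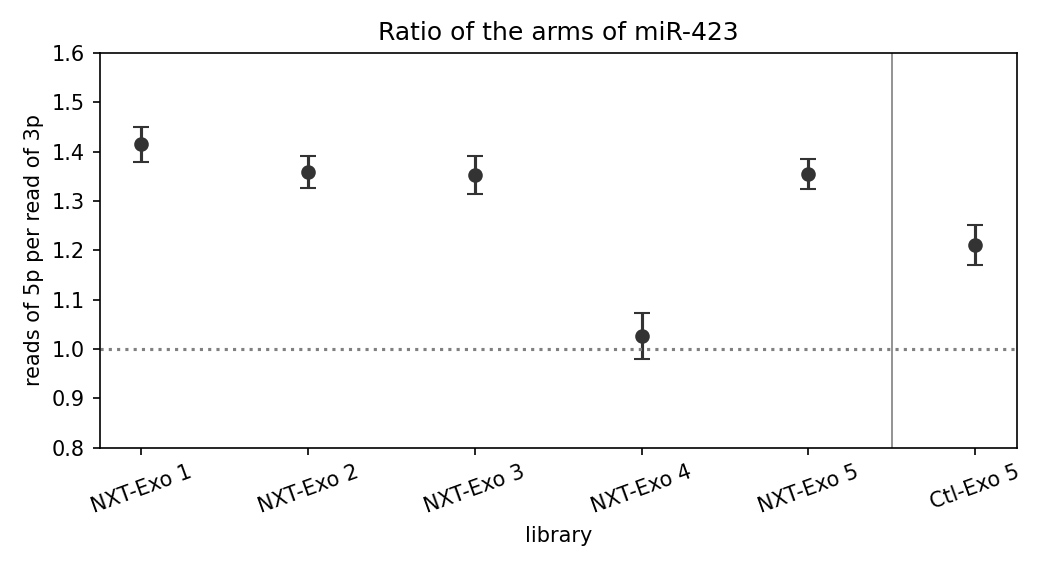
Reads of rno-miR-423-5p for each read of rno-miR-423-3p in each library. Points are single libraries, bars are exact 95% binomial intervals of counting error, and the dotted line marks equal reads; NXT-Exo 4 (1.026) is the library whose interval reaches 1.

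Counting error was small beside these differences. The exact 95% binomial interval of the ratio was 0.98 to 1.074 in NXT-Exo 4, 1.171 to 1.252 in Ctl-Exo 5, and 1.315 to 1.451 across NXT-Exo 1, 2, 3 and 5. These intervals cover counting error only and compare the libraries, not the conditions. Between the groups, the mean log2 ratio was 0.37 ± 0.19 (SD, n = 5) in NXT-Exo and 0.28 in Ctl-Exo 5. The difference of 0.09 was smaller than the SD. An exact permutation test over the 6 libraries cannot give a two-sided p below 0.167 with a lone control, so the p of 1.0 found here bears little on the difference. Without NXT-Exo 4 the difference was 0.18, and the log2 ratios of the other 4 NXT-Exo libraries had an SD of 0.03. The Ctl-Exo 5 ratio lay within the NXT-Exo range, as it did for all but 22 of the 69 arm pairs described next (31.9%).

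For comparison, 127 rat hairpins had both arms listed, and in 69 of them each arm averaged 10 or more reads. In most, one arm dominated. The median size of the log2 ratio was 2.98 (0.5 reads were added to each count), and 34 of the 69 hairpins had more than 10 times as many reads of one arm as of the other. miR-423 was the 8th most even of them and one of 15 (21.7%) with arms within 2-fold. Its 3p arm, at a mean of 8794 reads, was the most abundant minor arm of the 69. The log2 ratio of miR-423 varied with an SD of 0.19 over the NXT-Exo libraries, the 10th smallest, against a median SD of 0.41. Hairpins with few reads vary more from counting error, so this rank depends partly on depth. Among the 5 hairpins whose minor arm averaged 1000 or more reads, miR-423 had the smallest SD, against a median of 0.33.

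**Figure D3:**
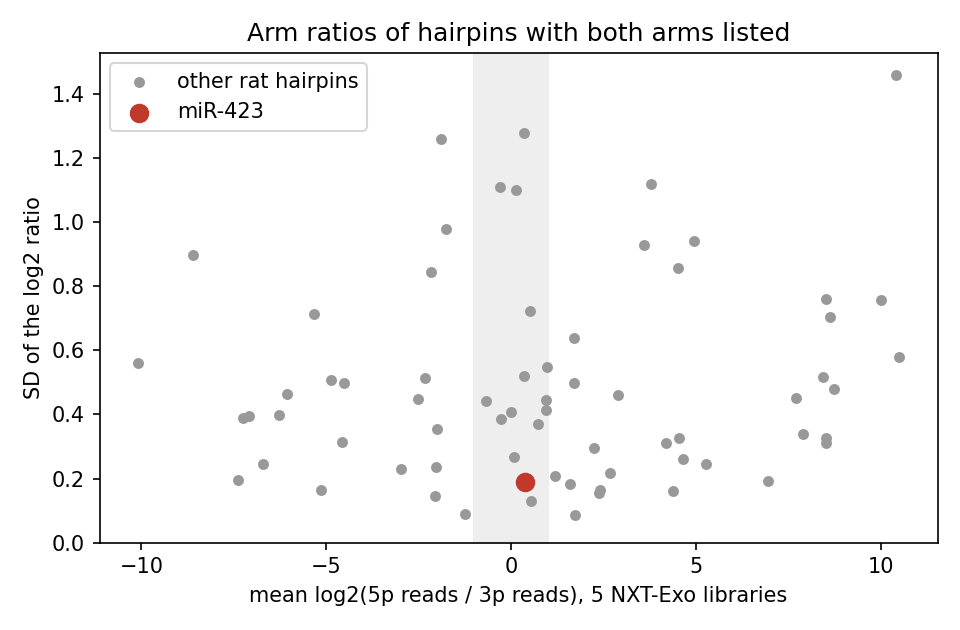
Mean log2 ratio of 5p to 3p reads over the 5 NXT-Exo libraries (horizontal) and its SD (vertical) for 69 rat hairpins with both arms listed. The grey band marks arms within 2-fold of each other. miR-423 (red, 0.37 with an SD of 0.19) lies in it, among the hairpins with the least variable ratio. Hairpins with few reads vary more from counting error.

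The same measure can be read for hairpins whose arms serve in serum reference assays. miR-425 was also even, with a mean log2 ratio of 0.07 (SD 0.27, n = 5) in NXT-Exo and -0.14 in Ctl-Exo 5. miR-93, which represses cell cycle inhibitors and is made from an intron of Mcm7, favoured its 5p arm with a mean log2 ratio of 2.41 (SD 0.17, n = 5). Ctl-Exo 5 was at 2.58 for miR-93. miR-191a, transcribed together with miR-425, had a mean log2 ratio of 8.51 (SD 0.33, n = 5) and 8.79 in Ctl-Exo 5. For miR-451 the mean log2 ratio was 6.94 (SD 0.19, n = 5), with 5.95 in Ctl-Exo 5. The control ratio was outside the NXT-Exo range for miR-191a and miR-451, as for 22 of the 69 hairpins in all (31.9%). These ratios were not tested against each other.

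The arms also differed in how much they varied over the 6 libraries. rno-miR-423-3p had an SD of log2(CPM + 1) of 0.12, the 14th smallest among the 467 miRNAs, whose median was 0.34. Many of the 467 have far fewer reads and so more counting error, and the ranks are not among miRNAs of like abundance. rno-miR-423-5p had an SD of 0.28 and ranked 179th, a place that moved to 102nd with no scaling factor and to 300th with a pseudocount of 10. Counting error would give an SD of 0.017 and 0.015. From the lowest to the highest library, the 3p arm differed 1.28-fold and the 5p arm 1.68-fold. NXT-Exo 4 decided most of the latter, since without it the range was 1.18-fold and the 5p arm had an SD of 0.09, the 16th smallest. The SD of the 3p arm without it was 0.05.

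A list of 7 miRNAs often used as references in serum assays was set beside the arms, and all 7 were present. miR-484 (SD 0.09, the 4th smallest of the 467) was steadier than the 3p arm of miR-423. The SDs of miR-425-5p (0.13), miR-93-5p (0.15), miR-103-3p (0.16) and miR-16-5p (0.18) were between those of the arms of miR-423. miR-451-5p, an abundant red blood cell miRNA, had an SD of 0.32 and miR-191a-5p one of 0.34, which ranked 236th. None of the 7 passed the edgeR test, with adjusted p from 0.873 to 0.971 (Benjamini-Hochberg). For miR-16-5p, miR-103-3p, miR-191a-5p and miR-425-5p, Ctl-Exo 5 was higher than each of the treated libraries, and for miR-484 it was lower than each. For both arms of miR-423 it lay within their range, as it did for all but 175 of the 467 miRNAs (37.5%).

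The low 5p arm in NXT-Exo 4 went together with several other features of this library. NXT-Exo 4 had the fewest listed reads, 1168686, and the largest TMM factor. Relative to the median of the other NXT-Exo libraries, its log2 level was lower by 0.68 for rno-miR-423-5p (log2 difference -0.68) and by 0.25 for rno-miR-423-3p (log2 difference -0.25), against a median of -0.007 over the 467 miRNAs. The 5p arm was the 56th lowest of the 467 and the 3p arm the 148th. The median was -0.207 for the 56 sequences with 40% or more G, the 5p arm among them. It was -0.044 for the 148 with under 20% G. For the 85 sequences with GC of 60% or more, the 3p arm among them, it was -0.125, against 0.006 for the 74 under 40%.

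Sequence length moved with the low 5p arm over the 467 miRNAs, but the longest class did not among the other rat-named ones. Measured against the median of the other 5 libraries, the median log2 difference in NXT-Exo 4 was 0.03 for the 213 sequences of 22 bases, -0.12 for the 94 of 23 bases and -0.44 for the 46 of 24 bases or more, to which rno-miR-423-5p belongs. In this longest class 37 of the 46 sequences were lower. Without the 3 miR-423 sequences in it, the median was -0.41, and 34 of 43 were lower. In the other libraries the longest class lay between -0.09 (Ctl-Exo 5) and 0.22 (NXT-Exo 3). Among rat-named sequences alone the longest class holds 11, with a median of -0.28 and 6 of the 11 lower in NXT-Exo 4. The other libraries had medians from -0.13 to 0.15, with 3 to 7 of the 11 lower. Without rno-miR-423-5p, NXT-Exo 4 had a median of -0.04 with 5 of 10 lower and did not stand apart from the other libraries, at -0.14 to 0.18. The 53 rat-named sequences of 23 bases other than rno-miR-423-3p had a median of -0.105 in NXT-Exo 4, with 32 lower. Their medians in the other libraries were -0.038 to 0.0849. Sequences of 24 bases or more other than rno-miR-423-5p took 0.68% of the listed reads in NXT-Exo 4 and 0.794% to 0.93% in the other libraries.

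**Figure D4:**
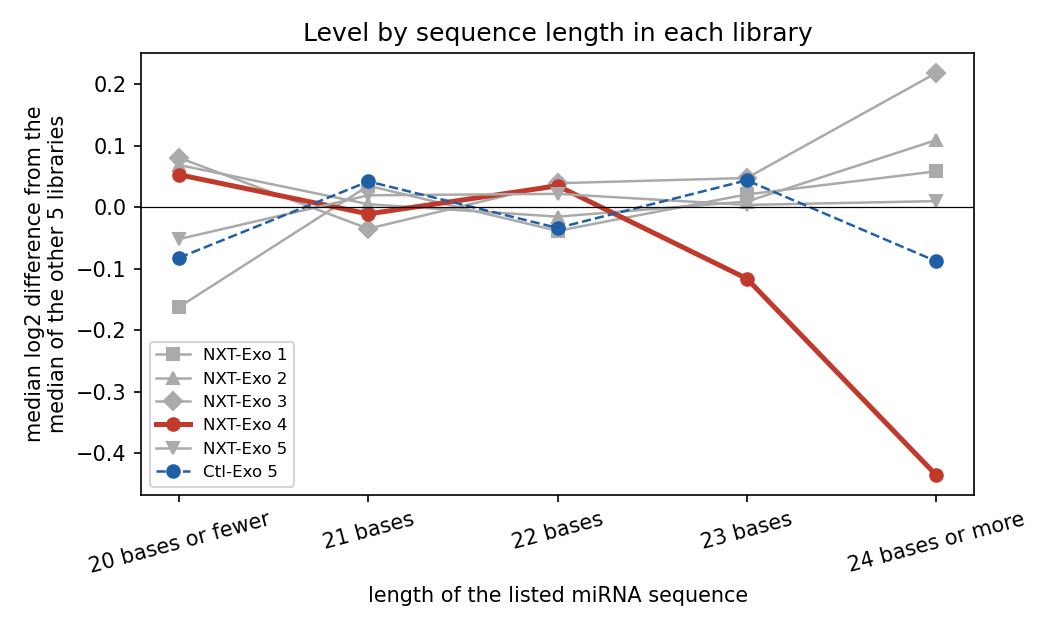
Median log2 difference of each library from the median of the other 5 libraries (vertical) for miRNAs averaging 10 or more reads, in classes of sequence length (horizontal; 35, 79, 213, 94 and 46 sequences). NXT-Exo 4 (thick line) falls to -0.44 in the longest class, where the other libraries lie between -0.09 and 0.22.

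Arm ratios of other hairpins were read in the same way. In NXT-Exo 4, the 24 hairpins besides miR-423 whose 5p arm is longer than the 3p arm had a median log2 ratio -0.49 from the median of the other 5 libraries, and 18 of the 24 were lower. For miR-423 this value was -0.40. The 29 hairpins with arms of equal length had a median of 0.03 and the 15 with a longer 3p arm one of 0.11. In Ctl-Exo 5 the medians of these 3 sets were 0.08, 0.08 and 0.40, while miR-423 was at -0.16. In the remaining libraries all 3 medians lay between -0.12 and 0.12. The length and base composition classes were set up once the low 5p arm was known. The part of length, base composition, depth or scaling in the low 5p arm was not tested.

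Markers of blood cells and liver were set beside the arms, because serum exosomes hold miRNAs of several sources. The 4 red blood cell miRNAs (miR-451-5p, miR-486, miR-144-3p and miR-144-5p) were all detected, and their levels summed to between 157700 and 260300 CPM in the treated libraries. The sum was 203900 CPM for NXT-Exo 4 and 210400 CPM for the control library. It was mostly miR-486, at 200100 CPM in NXT-Exo 4. Within NXT-Exo, miR-451-5p was highest in NXT-Exo 4 (3239 CPM), whereas miR-486, miR-144-3p and miR-144-5p were not. The log2 ratio of miR-451-5p to miR-23a-3p, an index of haemolysis, was highest in NXT-Exo 4 (-3.25), was -4.76 to -3.68 in the other NXT-Exo libraries and was -4.11 in Ctl-Exo 5. The 6 white blood cell and platelet miRNAs summed to 24730 to 28600 CPM in NXT-Exo, with the sum again highest in NXT-Exo 4. Ctl-Exo 5 had 30250 CPM. Most of the sum was miR-142-5p, with 19640 CPM in NXT-Exo 4. Within NXT-Exo, miR-142-5p, miR-150-5p and miR-126a-3p were highest in NXT-Exo 4, whereas miR-223-3p and miR-146a-5p were not. miR-142-3p was lowest there, at 37.52 CPM. miR-122-5p, the main liver miRNA, reached 17380 CPM in NXT-Exo 1. It lay between 3294 and 6430 CPM in NXT-Exo 2 to 5, and Ctl-Exo 5 had 2195 CPM. No member of these lists was at 0 in any library. Their part in the levels of miR-423 was not tested.

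miR-423-x and miR-423-y were rare beside the arms. miR-423-x had 58, 34, 37, 11 and 43 reads in NXT-Exo 1 to 5 and 29 in Ctl-Exo 5, or 0.221% to 0.393% of the reads that begin like the 5p arm. miR-423-y had 134, 127, 96, 26 and 136 reads in NXT-Exo 1 to 5 and 63 in Ctl-Exo 5, or 0.699% to 1.27% of those that begin like the 3p arm. The share of miR-423-y was lowest in NXT-Exo 4, and that of miR-423-x was lowest in NXT-Exo 2. Adding their reads to the arms left the log2 differences of the arms at 0.05 and -0.06.

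Over the 6 libraries the levels of the arms, on the log2(CPM + 1) scale, had a Pearson r of 0.927 (exact permutation p = 0.0361) and a Spearman rho of 0.657 (exact permutation p = 0.175). This was the only relation between measures tested across libraries. Without NXT-Exo 3 and NXT-Exo 4, the libraries farthest from the median of the 5p arm, r was -0.165, so the relation rested on those libraries.

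Among 227 miRNAs averaging 100 or more reads, those most like rno-miR-423-5p over the 6 libraries were miR-128-y (r = 0.947), miR-191-x (r = 0.941) and miR-466-y (r = 0.938). Those most like rno-miR-423-3p were miR-191-x (r = 0.973), rno-miR-30e-5p (r = 0.943) and miR-1983-z (r = 0.929). All of these were lowest in NXT-Exo 4. miR-191-x, with 24 bases, ran from 233.7 CPM in NXT-Exo 4 to 514 CPM in NXT-Exo 3, and rno-miR-30e-5p from 5390 CPM to 7592 CPM in the same libraries. Without NXT-Exo 4 the correlations ranged from 0.541 to 0.879. They share library, depth and scaling and are given as a description over 6 points.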

How the data were processed

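Small RNA of serum exosomes was sequenced by the authors (Illumina TruSeq libraries). Per the labels, adapter dimers, junk, low-complexity reads, other RNA families and repeats were removed with ACGT101-miR, and the build is Rnor 6.0. The aligner and miRNA database are not given in the sources used here. Raw read counts for each listed miRNA sequence were deposited. The authors also deposited TPM values, which are the count times a constant per library (0 reads as 0.01), and these were not used for the comparisons. The listed counts were 86.0% to 88.3% of the totals that the constants imply. There were 8 value columns of other Ctl-Exo libraries, a count and a TPM column for each library, and they were not used here.

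Libraries were grouped by title. TMM factors and quasi-likelihood tests were calculated with edgeR 4.0.16 in R 4.3.3 for all 467 miRNAs averaging 10 or more reads, and DESeq2 1.42.0 was an alternative. The SE was taken from the test statistic. Depth limits rare sequences, since 1 read is 0.261 to 0.782 CPM. Ratios, intervals and exact permutation tests used Python 3.11.15 with scipy 1.17.1, and RNAfold 2.7.2 folded the hairpin. The edgeR script was tested on simulated data with changes far larger than those of the arms. The simulated control varied like the NXT-Exo libraries, so that assumption was not tested.

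RefSeq (GRCr8) held 391 of the 427 rat names, all with the listed sequence. It held the 5p arm, and the 3p arm was taken from the deposited table. The miRNAs named are the arms, sequences with their names or seeds, 7 serum references with their other arms, the 3 most like each arm, and marker lists of red blood cells, white blood cells and platelets, and liver. The members and lists were chosen with earlier results of these data known.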

Additional observations from a re-analysis of the deposited data

Results flagged for a closer look

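For 3 of the 29 quantities examined over the 5 treated libraries, a single library stood apart, though not the same one each time. The measure was its gap to its neighbour as a share of the whole range (critical value 0.71). Chance gives about 1 in 20 for each quantity. The quantities overlap, since the 5p level enters both the sum and the ratio of the arms. This sets no chance rate for the 3 together.

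The level of miR-423-5p in NXT-Exo 4 (2961 CPM) was far below the next lowest, 4511 CPM in NXT-Exo 5, and the gap was 0.766 of the range. For miR-423-3p the gap in the same library was 0.556, below the critical value. The log2 ratio of miR-423-5p to miR-423-3p stood farther apart in NXT-Exo 4, with a gap of 0.86. It was 0.04 there and between 0.44 and 0.50 in NXT-Exo 1, 2, 3 and 5. NXT-Exo 4 had the fewest reads and low levels of listed sequences of 24 bases or more (median log2 difference -0.41 without miR-423, but -0.04 among the 10 with rat names), and their part in the gap was not tested.

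miR-122-5p, used as the liver marker, had a gap of 0.777, with 17380 CPM in NXT-Exo 1 against 6430 CPM in the next library. The arms of miR-423 did not stand apart in NXT-Exo 1, at 4897 CPM and 3460 CPM.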

How the results depend on the processing

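The log2 difference of each arm kept its direction under the 13 alternatives run, and did not pass the threshold in the 10 of them that had a test. The values were 0.01 to 0.17 for miR-423-5p (main 0.05), with the highest without NXT-Exo replicate 4. They were -0.09 to -0.01 for miR-423-3p (main -0.06). All alternatives used Ctl-Exo 5 as the only control, so they are not independent, and both main values were smaller than their SEs. The arm ratio difference kept its sign in 8 alternatives, at 0.06 to 0.18 with leave-one-out, the highest without NXT-Exo replicate 4, and so did the mean arm ratio of NXT-Exo. The number of miRNAs that passed the test was 0 in all 9 alternatives. The 30 miRNAs that were 2-fold or more apart comprised 22 higher and 8 lower ones. This number was 99 with no filter on low counts and 4 with a pseudocount of 10, and with no scaling factor it was 30, with 26 higher and 4 lower. The SD of miR-423-5p over the libraries (0.28) was 0.0944 to 0.309 with leave-one-out, and that of miR-423-3p (0.12) was 0.0546 to 0.133. In both cases the lowest value was without NXT-Exo replicate 4. With no scaling factor the SD of miR-423-3p was 0.0597, the 2nd smallest of 467. NXT-Exo 4 has the largest factor, and the cause was not tested. No paired analysis was run, because the paper states that rats were divided at random between the groups. Replicate number 5 occurs in both groups among the libraries used here, but the sample titles do not pair these libraries. Because the further control libraries, held as 8 count and TPM columns, were left unused, no spread within Ctl-Exo was measured.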
